A study of Mus musculus with 6 samples.

Results

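The genes described here encode lysosomal enzymes, cathepsins and lysosomal membrane proteins, together with genes of neuronal ceroid lipofuscinosis and the transcription factor Tfeb, as measured in mouse spleen. They are a list of 38 gene symbols. A gene counted as measured where a probe set of the array was annotated to that symbol alone, and of several such probe sets the one with the highest mean over all 6 arrays was used. By this rule 37 of the 38 were measured, out of 22180 genes on the array. Glb1, which encodes beta-galactosidase, was not, because its probe set is annotated to more than 1 gene.

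Spleen RNA came from mice aged 1 year, with 1 Affymetrix array per sample and 3 samples in each of 2 groups. The DX2 mice had the genotype CAG-rtTA with TRE DX2/+, in which the CAG promoter drives rtTA, an activator that needs doxycycline, and the TRE transgene then expresses AIMP2-DX2, a shortened splice form of the tRNA synthetase scaffold AIMP2. The control littermates carried TRE DX2/+ without rtTA. All mice ate pellets with doxycycline at 6.25 mg per kg, begun when they were 8 weeks old. The groups differ in rtTA as well as in induced DX2, and these effects cannot be told apart. The samples are called biological replicates in the labels.

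Lysosomes are acidic organelles in which many hydrolases break down protein, glycans and lipids. Most of the soluble enzymes are made in the endoplasmic reticulum, tagged with mannose 6-phosphate in the Golgi and carried to the lysosome by mannose 6-phosphate receptors. TFEB, a basic helix-loop-helix factor, binds a motif with the core CACGTG in the promoters of many lysosomal genes. In the spleen, lysosomes are prominent in the macrophages of the red pulp, which digest aged red cells, and cathepsins of antigen-presenting cells trim peptides for MHC class II.

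The samples differed in ways that bear on every value below. By Xist and the Y-linked transcripts, 2 of the 3 control spleens (control 1 and control 2) were female and the other control and the 3 DX2 spleens were male, which the labels do not mention. DX2 1 stood apart from DX2 2 and DX2 3 in its T cell, neutrophil and platelet transcripts. The mean log2 value of 11 neutrophil markers was 8.98 in DX2 1 and between 6.87 and 7.80 on the other arrays. DX2 2 stood apart in other lists: the mean of 7 erythroid markers was 7.25 there against 9.47 and 9.17 in DX2 1 and DX2 3, and that of 6 endothelial markers 6.99 against 7.67 in both. The array weights that limma estimated were 0.635, 0.516 and 2.09 for DX2 1, 2 and 3, and 1.03 to 1.33 for the controls. Correlations across genes, which are not independent replicates, ran from 0.967 to 0.983 between DX2 arrays and from 0.986 to 0.988 between control arrays. The number of arrays limits the precision.

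The promoters of the list were examined for the TFEB motif. RefSeq promoter sequences (GRCm38.p6, from 250 bases before to 50 bases after a gene's start) were found for 33 of the 38 genes, and those of Asah1, Cln8, Ctsb, Ctsh and Npc1 were not in the table. The motif searched was GTCACGTG, or CACGTGAC on the other strand, which holds the core CACGTG within it. Matches lay in the promoters of 10 of the 33 genes (30.3%), against 553 of 16990 genes of the array with a promoter in the table (3.25%). TFEB's motif was described from lysosomal genes in the first place, so this share is a description of the list and not a result of these arrays.

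Shown here, 5′ to 3′ on the gene's strand and with the matches in capitals, are a member of each kind of outcome with a match upstream of its start, and Cln6, the one member that passed the test. They are Ctsd and Lamp1 (every DX2 array above every control array), Naglu (groups overlapping), Mcoln1 (every DX2 array below every control array) and Cln6. All lie upstream of the gene's first base, outside any annotated gene.
Ctsd, chr7:142387897-142387946, minus strand: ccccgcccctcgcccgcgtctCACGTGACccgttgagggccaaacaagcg
Lamp1, chr8:13159112-13159160, plus strand: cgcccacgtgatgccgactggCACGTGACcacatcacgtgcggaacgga
Naglu, chr11:101069998-101070047, plus strand: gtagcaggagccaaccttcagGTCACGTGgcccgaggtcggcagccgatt
Mcoln1, chr8:3500425-3500502, plus strand: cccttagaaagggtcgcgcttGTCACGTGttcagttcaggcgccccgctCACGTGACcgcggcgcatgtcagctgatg
Cln6, chr9:62838735-62838784, plus strand: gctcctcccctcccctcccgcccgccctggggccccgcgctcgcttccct
The Mcoln1 stretch holds 2 matches, and the Cln6 promoter held no CACGTG at all in its window. Lamp1 had further copies of the core CACGTG beside the longer match, as its lower-case letters show. By outcome, the longer motif was in 4 of 11 members with every DX2 array above every control array, in 4 of 19 with overlapping groups and in 1 of 2 with every DX2 array below. No test was made of these shares.

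Across the list, lysosomal transcripts read slightly higher in DX2 spleens, and 1 gene, Cln6, passed the test. Of the 37 measured members, 30 had a higher mean in DX2 and 7 a lower one, where 51.6% of all genes had a higher one. The median difference (DX2 minus control, log2) was 0.28, against 0.01 over all genes, and single members ran from -0.23 (Tfeb) to 0.88 (Cln6). In 12 members (32.4%) all 3 DX2 arrays lay above all 3 control arrays, as they did in 10.7% of all genes, and in 2 members, Mcoln1 and Tfeb, all lay below (11.2% of all genes). With the 40% dimmest genes left out, which removes no member, the share above was 14.3% of genes and their median difference 0.03. Only Cln6 was past the limma threshold (Benjamini-Hochberg adjusted p under 0.05), as were 0.316% of all genes, 0.0361% in the higher direction. At an unadjusted p under 0.05 there were 13 members (35.1%), all of them higher, against 16% of all genes in either direction. The next smallest adjusted p among the members was 0.110. In whole spleen, more cells of a type and more RNA per cell cannot be told apart.

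The size of the shift depended on which DX2 spleen was looked at. The median over the members of an array's log2 value minus the control mean came to 0.03, 0.46 and 0.26 in DX2 1, 2 and 3. In control 1, 2 and 3 it came to 0.06, -0.07 and 0.03. The value of DX2 1 thus lay within the range of the controls. DX2 2 was the highest of the 6 arrays in 25 of 37 members, where it was the highest in 22.9% of all genes. DX2 1 was the lowest of the DX2 arrays in 28 of 37 members (75.7%, against 38.6% of all genes). Control 2 was the lowest of the control arrays in 26 (70.3%, against 34.1% of all genes). Without DX2 2 the median difference of the members was 0.16, with 14 members above, and without DX2 1 it was 0.39, with 23 above. Over all genes the share above was 17.9% without DX2 2 and 17.8% without DX2 1, since fewer arrays overlap less often.

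**Figure D1:**
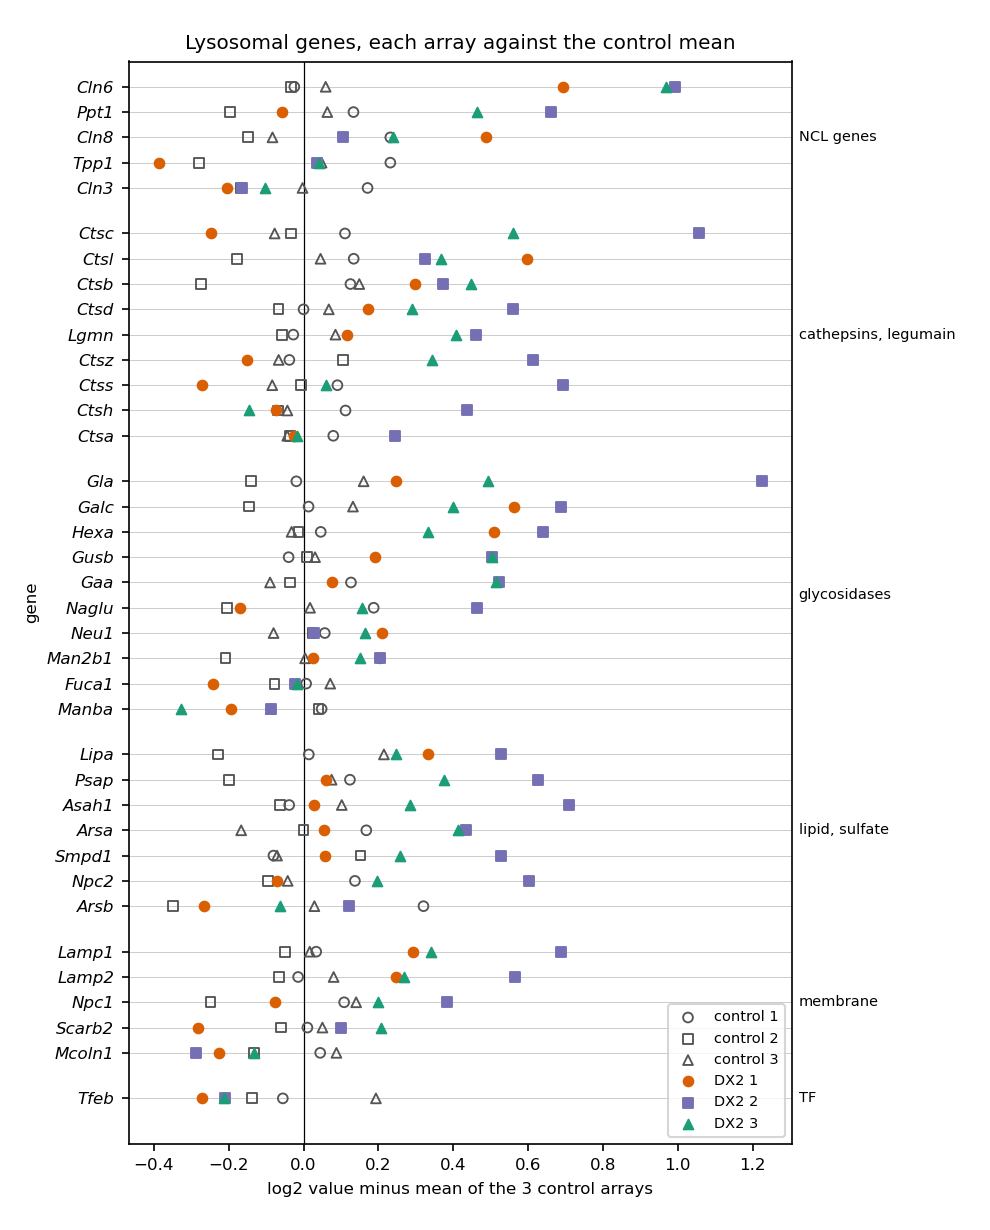
Log2 value of each measured lysosomal gene on each array, minus the mean of the 3 control arrays (x axis), with genes grouped by role (y axis, highest difference first). Open grey symbols are control arrays and filled symbols DX2 arrays. DX2 2 (squares) lies farthest right in 25 of 37 genes, and for Cln6 all 3 DX2 arrays lie well right of the controls.

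The genes of neuronal ceroid lipofuscinosis, a group of childhood neurodegenerative diseases with lysosomal storage, differed from one another in direction. Cln6 encodes a membrane protein of the endoplasmic reticulum that takes part in passing newly made lysosomal enzymes to the Golgi. It read 6.45, 6.45 and 6.54 in control 1, 2 and 3 and 7.17, 7.47 and 7.45 in DX2 1, 2 and 3. The lowest DX2 spleen thus lay clearly above the highest control. Cln6 rose 1.85-fold, by 0.88 (SE 0.12) on the log2 scale, with an adjusted p of 0.0422 (limma, Benjamini-Hochberg) and a 95% interval from 0.61 to 1.16. The difference stayed between 0.83 and 0.98 whichever array was left out. The adjusted p did not pass without control 1 (0.200), control 2 (0.169), control 3 (0.198), DX2 1 (0.0540) or DX2 3 (0.134), and passed without DX2 2 (0.0434). With a sex term in the fit, the difference was 0.83 and its adjusted p 0.370.

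Cln8, the partner of Cln6 in the endoplasmic reticulum, read 5.61, 5.23 and 5.30 in control and 5.87, 5.49 and 5.62 in DX2 spleens. The groups overlapped, and the difference of 0.28 (SE 0.15) did not pass. Its other probe set differed by 0.03. Ppt1, a thioesterase that strips palmitate from proteins, read 9.60 in DX2 1, inside the control range of 9.46 to 9.79, but 10.32 and 10.12 in DX2 2 and DX2 3. Tpp1, a protease that removes tripeptides, was lowest of all in DX2 1 (8.92) and read 9.34 and 9.35 in the other DX2 spleens, against 9.54, 9.03 and 9.35 in control. Cln3, a lysosomal membrane protein, differed by -0.16 (SE 0.12), with DX2 values of 6.67 to 6.78 against 6.71 to 7.05. The test of the difference between Cln6 and these genes was not made.

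All 9 cathepsins and legumain had a higher mean in DX2, none past the threshold, with a median difference of 0.33. In 4 of them (44.4%), Ctsb, Ctsd, Ctsl and Lgmn, every DX2 array lay above every control array, as in 10.7% of all genes. Ctsl, a cysteine protease, read 8.22, 7.90 and 8.13 in control and 8.68, 8.41 and 8.45 in DX2 spleens. It was one of the few members that were highest in DX2 1, and differed by 0.43 (SE 0.13, adjusted p = 0.185, limma). Ctsb, another cysteine protease of broad range, read 11.68, 11.28 and 11.71 in control and 11.86, 11.93 and 12.00 in DX2 spleens. The gap between its groups was small beside the spread among the controls, where control 2 was low. Its difference was 0.37 (SE 0.14).

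Ctsd, the main aspartic protease of the lysosome, read 10.74, 10.67 and 10.81 in control and 10.91, 11.30 and 11.03 in DX2 spleens. Lgmn, or legumain, which cuts after asparagine and matures several cathepsins, read 9.44, 9.41 and 9.56 in control and 9.59, 9.93 and 9.88 in DX2 spleens. In both genes DX2 1 stood just above the highest control. Their differences were 0.34 (SE 0.13) and 0.33 (SE 0.13), with adjusted p of 0.259 and 0.264 (limma).

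Among the cathepsins and legumain, Ctsc, Ctss and Ctsz had the largest SD among the 3 DX2 spleens (0.66, 0.49 and 0.39). Ctsc, which activates granule serine proteases, read 10.16, 10.02 and 9.97 in control and 9.80, 11.11 and 10.61 in DX2 spleens. DX2 1 was thus below every control and DX2 2 above by about a log2 unit, and the difference of 0.46 had an SE of 0.30. It was 0.16 without DX2 2 and 0.81 without DX2 1. Ctss, which trims the invariant chain of MHC class II, read 10.64, 11.61 and 10.97 in DX2 spleens, against a control range of 10.83 to 11.004. Its order across the DX2 spleens was the same as that of Ctsc, and without DX2 2 its difference was -0.11 in place of 0.16. Ctsz read 9.77, 10.54 and 10.27 in DX2 spleens against 9.86 to 10.03 in control. Ctsh, an aminopeptidase, and Ctsa, the protective protein that also stabilises beta-galactosidase and neuraminidase, differed by 0.07 each. Only DX2 2 (10.02 and 9.75) exceeded their controls, and both differences were below 0 without it (-0.11 and -0.02).

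Among the 10 measured glycosidases, 8 had a higher mean in DX2 and 2 a lower one, with a median of 0.26 and none past the threshold. Hexa, the alpha subunit of beta-hexosaminidase, read 9.01, 8.95 and 8.93 in control and 9.47, 9.60 and 9.29 in DX2 spleens. Galc, which removes galactose from galactosylceramide, read 5.95, 5.79 and 6.07 in control and 6.50, 6.62 and 6.33 in DX2 spleens. These were the closest to passing after Cln6, with groups that did not overlap. Hexa differed by 0.49 (SE 0.12, 1.41-fold) and Galc by 0.55 (SE 0.13, 1.46-fold), at adjusted p of 0.112 and 0.110 (limma).

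Gla, the alpha-galactosidase that is deficient in Fabry disease, read 6.12, 6.003 and 6.30 in control and 6.39, 7.37 and 6.64 in DX2 spleens. Its difference of 0.66 (SE 0.24) was the second largest of the list and rested largely on DX2 2, since without that array it was 0.37. Gla lies on the X chromosome, as does Lamp2, and in both genes the male control read higher than the female controls. That control was the highest of the controls in 15 of 37 members (40.5%, against 31.2% of all genes). Gusb, or beta-glucuronidase, read 7.77, 7.82 and 7.84 in control and 8.00, 8.32 and 8.32 in DX2 spleens, a difference of 0.40 (SE 0.12). Gaa, the acid alpha-glucosidase that degrades glycogen, read 7.42, 7.25 and 7.20 in control and 7.37, 7.81 and 7.80 in DX2 spleens, so that DX2 1 alone lay within the control range.

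The other glycosidases overlapped between the groups. Naglu, of heparan sulfate breakdown, differed by 0.15 (SE 0.18), the sialidase Neu1 by 0.13 (SE 0.11) and the alpha-mannosidase Man2b1 by 0.13 (SE 0.13). The beta-mannosidase Manba read 6.94, 6.93 and 6.803 in control and 6.70, 6.803 and 6.56 in DX2 spleens, a difference of -0.20 (SE 0.11). Fuca1, which removes fucose, differed by -0.09 (SE 0.11). The 95% intervals of these 5 genes reached down to -0.46 at the lowest (Manba) and up to 0.58 at the highest (Naglu).

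Enzymes of lipid and sulfate breakdown and their carriers gave 6 higher means and 1 lower, a median of 0.30 and no call. Here only Lipa, the acid lipase of cholesteryl esters, had every DX2 array above every control array (14.3%, against 10.7% of all genes). It read 9.20, 8.95 and 9.40 in control and 9.51, 9.71 and 9.43 in DX2 spleens, the lowest DX2 value being 9.43 beside a control of 9.40, and differed by 0.37 (SE 0.15). Psap, the precursor of the saposins that present lipids to their enzymes, read 11.08, 10.75 and 11.03 in control and 11.01, 11.58 and 11.33 in DX2 spleens. Asah1, the acid ceramidase, read 8.96, 8.93 and 9.10 in control and 9.02, 9.70 and 9.28 in DX2 spleens. In both, DX2 1 lay within the control range and DX2 2 was highest.

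The arylsulfatase Arsa differed by 0.30 (SE 0.15) and the acid sphingomyelinase Smpd1 by 0.28 (SE 0.15), with the other Smpd1 probe set at -0.03. Npc2, which binds cholesterol in the lysosome and hands it to Npc1, read 8.95, 8.72 and 8.77 in control and 8.74, 9.41 and 9.01 in DX2 spleens. The arylsulfatase Arsb varied most among the controls, at 8.08, 7.41 and 7.79, and its DX2 values of 7.49 to 7.88 lay inside that range.

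**Figure D2:**
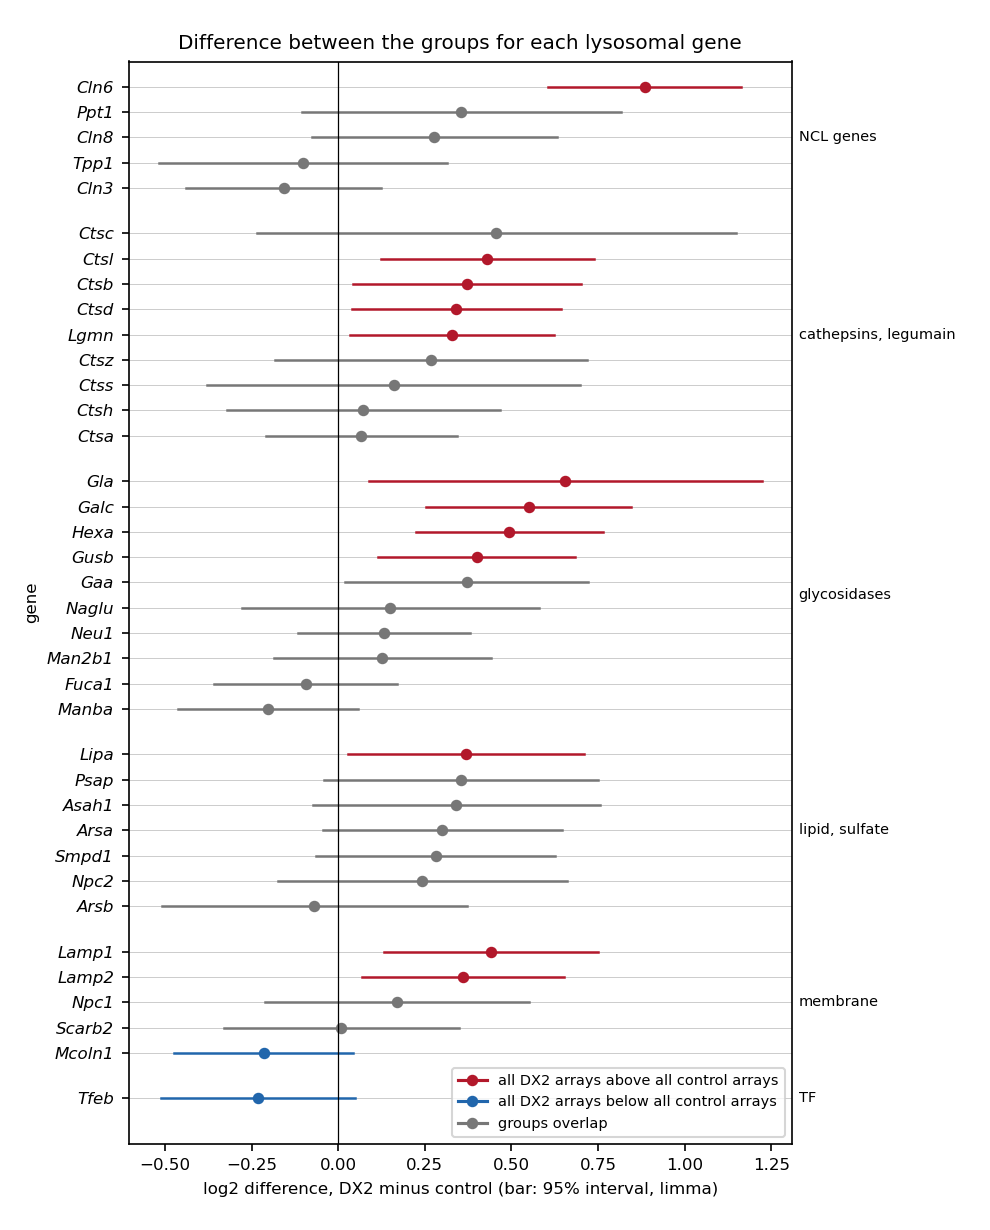
Difference between the group means (DX2 minus control, log2, x axis) of each measured lysosomal gene (y axis, by role), with the 95% interval from limma as a bar. Red marks the 12 genes with every DX2 array above every control array, blue the 2 with every DX2 array below, and grey the others. Cln6 is at 0.88, and most other genes lie between 0 and 0.5.

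Membrane proteins of the lysosome were divided. Lamp1, an abundant glycoprotein that lines the lysosomal membrane, read 9.96, 9.87 and 9.94 in control and 10.21, 10.61 and 10.26 in DX2 spleens. Lamp2, which also serves chaperone-mediated autophagy, read 8.91, 8.86 and 9.01 in control and 9.18, 9.50 and 9.20 in DX2 spleens. Both had groups that did not overlap, with differences of 0.44 (SE 0.13) and 0.36 (SE 0.12) and adjusted p of 0.179 and 0.227 (limma). Scarb2, the carrier of beta-glucocerebrosidase, read 8.50, 8.43 and 8.54 in control and 8.21, 8.59 and 8.70 in DX2 spleens, a difference of 0.01 (SE 0.15). Its DX2 values lay on both sides of the controls. Npc1, the cholesterol exporter, differed by 0.17 (SE 0.16).

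Mcoln1 and Tfeb read lower in DX2 spleens. Mcoln1, the lysosomal calcium channel TRPML1, read 7.46, 7.29 and 7.51 in control and 7.19, 7.13 and 7.29 in DX2 spleens. Control 2 and DX2 3 agreed to the second decimal, so the groups were barely apart. Tfeb read 5.92, 5.84 and 6.17 in control and 5.71, 5.77 and 5.77 in DX2 spleens. The differences were -0.22 (SE 0.11) for Mcoln1 and -0.23 (SE 0.12) for Tfeb, at adjusted p of 0.399 and 0.402 (limma). The difference of Tfeb was -0.13 without control 3, -0.14 with a second quantile normalization or with centred arrays, and -0.42 with a sex term. That of Mcoln1 was -0.12 with centred arrays. Both kept their sign under every setting tried, but with each array centred on its median over all probe sets no member had all DX2 arrays below, and 1 had with a second quantile normalization. Under those settings 15 and 13 members had every DX2 array above every control array (40.5% and 35.1%), against 19.1% and 15.7% of all genes.

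Other genes of the lysosome, in lists that hold no member, were examined beside these. Of the 7 lists, none had a gene past the threshold over all genes, and each is given by its counts and median. The vacuolar ATPase, the proton pump that acidifies the lysosome, had 15 of 17 measured subunits higher and a median of 0.20. In 5 of them (29.4%) every DX2 array lay above every control array, as in 10.7% of all genes. Atp6v1e1 read 8.29, 8.46 and 8.51 in control and 8.89, 8.75 and 8.72 in DX2 spleens, a difference of 0.37 (SE 0.11). Atp6v0d1 differed by 0.36 (SE 0.11), Atp6ap2 by 0.37 (SE 0.13) and Atp6v1b2 by 0.42 (SE 0.17).

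Of 23 other hydrolases and helper proteins 17 were higher, but the median was 0.08, since most differed little. In 6 of them (26.1%) the DX2 arrays all lay above the controls, as in 10.7% of all genes. The largest difference was that of Pla2g15, the lysosomal phospholipase A2, which read 7.37, 7.18 and 7.28 in control and 8.04, 8.64 and 8.04 in DX2 spleens. It differed by 0.96 (SE 0.18, 1.95-fold) at an adjusted p of 0.0817 (limma), so that it exceeded every listed member in size without passing. The acid phosphatase Acp2 differed by 0.75 (SE 0.20), the hyaluronidase Hyal2 by 0.62 (SE 0.18) and Hgsnat, an acetyltransferase of heparan sulfate breakdown, by 0.51 (SE 0.12).

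Among 10 other cathepsins and cystatins, 8 were higher with a median of 0.24. All DX2 arrays lay above all controls in 2 (20%) and below in 1 (10%), against 10.7% and 11.2% of all genes. Ctse, an aspartic protease, read 9.72, 9.76 and 10.21 in control and 11.62, 10.22 and 11.26 in DX2 spleens. DX2 2, in which Ctsc and Ctss peaked, was its lowest DX2 array. Ctsg, a granule protease of neutrophil precursors, was high in DX2 1 alone (8.24, against 5.78 to 6.57 on the other arrays). Ctso was lower, at 7.15 to 7.74 in DX2 against 8.23 to 8.46 in control spleens, with a difference of -0.79 (SE 0.18, adjusted p = 0.107, limma). Cst3, the inhibitor cystatin C, differed by 0.30 (SE 0.10).

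Other lysosomal membrane proteins and transporters were evenly divided, 12 higher and 15 lower, with a median of -0.02. All DX2 arrays lay above all controls in 5 (18.5%) and below in 3 (11.1%), against 10.7% and 11.2% of all genes. Slc11a1, the metal transporter NRAMP1 of phagosomes, read 8.07, 8.03 and 7.97 in control and 9.47, 8.81 and 8.70 in DX2 spleens. It differed by 0.97 (SE 0.20, adjusted p = 0.0965, limma). The tetraspanin Cd63 differed by 0.58 (SE 0.22) and Laptm4a by 0.32 (SE 0.11), while Mcoln3, a relative of Mcoln1, differed by -0.76 (SE 0.27).

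Sorting genes were divided as well, 11 higher and 10 lower, with a median of 0.08. All DX2 arrays lay above all controls in 3 (14.3%) and below in 3, against 10.7% and 11.2% of all genes. Gga2, an adaptor that packs mannose 6-phosphate receptors into carriers at the Golgi, read 7.19, 7.33 and 7.52 in control and 6.58, 6.41 and 6.72 in DX2 spleens, a difference of -0.78 (SE 0.13, adjusted p = 0.0723, limma). The receptor M6pr that it carries was higher, at 9.51, 9.51 and 9.49 in control and 9.78, 10.19 and 9.74 in DX2 spleens (0.40, SE 0.14). Vps16 differed by -0.31 (SE 0.12) and Vps35, of the retromer that returns receptors to the Golgi, by 0.27 (SE 0.11).

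The relatives of Tfeb did not share its direction. Tfec, a family member of macrophages, read 6.55, 6.53 and 6.57 in control and 6.96, 7.88 and 6.87 in DX2 spleens, and Tfe3 differed by 0.29 (SE 0.12). In each, all DX2 arrays lay above all controls, while Tfeb lay below. In the same list, which also holds mTORC1 regulators of the lysosome surface, Fnip2 differed by 1.25 (SE 0.34) and Tsc1 by -0.32 (SE 0.12). Of its 20 genes 14 were higher, with a median of 0.09, 6 (30%) with all DX2 arrays above all controls and 3 (15%) below. Of 18 autophagy genes 13 were higher, with a median of 0.08, 5 (27.8%) above in this sense and 2 (11.1%) below. The shares over all genes were 10.7% above and 11.2% below. Gabarapl1, an LC3-like protein of the autophagosome, differed by 0.95 (SE 0.16, adjusted p = 0.0672, limma) and Wipi1 by 0.66 (SE 0.19), while Atg16l1 and Uvrag differed by -0.34 (SE 0.10) and -0.38 (SE 0.16).

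**Figure D3:**
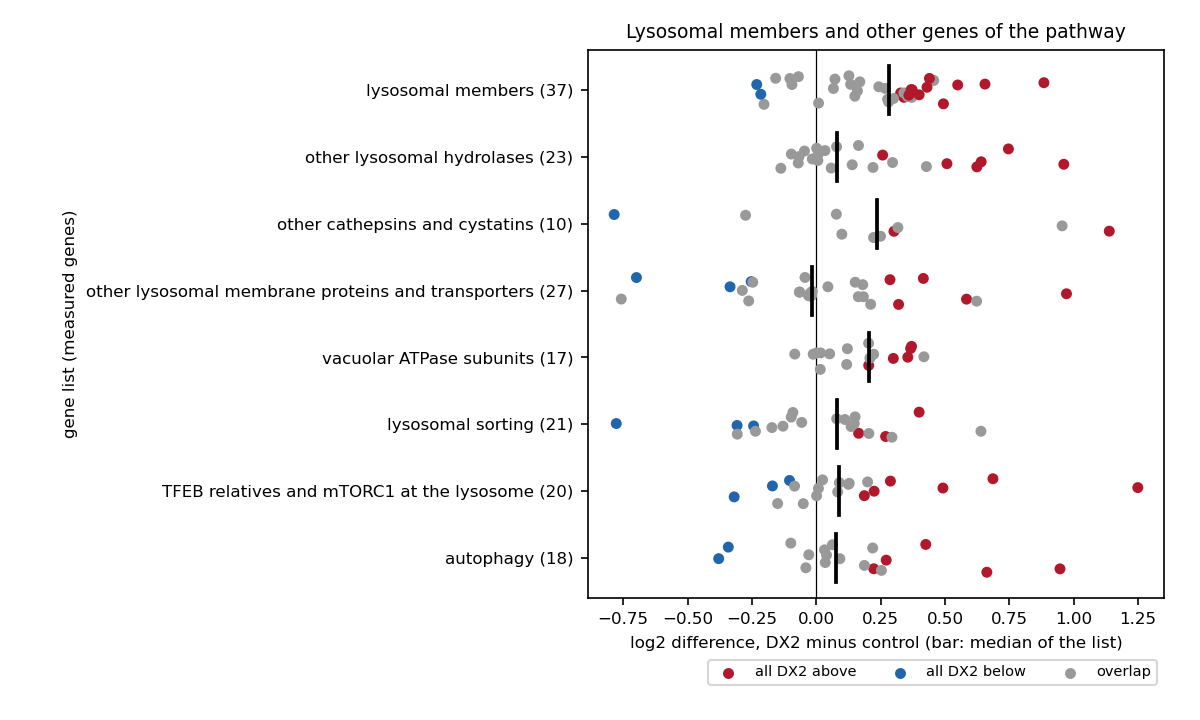
Difference between the groups (DX2 minus control, log2, x axis) for each gene of the lysosomal members and of 7 further lists (y axis, measured genes in brackets). Each point is a gene, red or blue where the groups do not overlap and grey where they do, and the black bar is the list's median. The members have a median of 0.28, and the other lists lie between -0.02 and 0.24.

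Marker transcripts of spleen cell types differed between the groups too. Of 18 red pulp macrophage markers 14 were higher, with a median of 0.44, and 1 (Cd5l) was past the threshold. Over all genes 0.0361% were past it in the higher direction. In 10 of the 18 (55.6%) every DX2 array lay above every control array, as in 10.7% of all genes. Timd4 lay below on every DX2 array (difference of -0.97), and Siglec1 (-0.78), Slc40a1 (-0.33) and Hmox1 (-0.03) also had lower means. The mean log2 value of the 18 markers was 8.41 to 8.62 in control and 8.73 to 8.99 in DX2 spleens. Of 8 monocyte markers 6 were higher (median 0.40). All 9 measured cell cycle markers lay above every control array on every DX2 array (median 1.06), with mean values of 6.96 to 7.77 in control and 8.14 to 8.62 in DX2 spleens. All 7 erythroid markers (median 1.19) and 10 of 11 neutrophil markers (median 0.56) had higher means in DX2 spleens, with overlapping groups in each gene. All 11 measured B cell markers were lower (median -1.27), with mean values of 9.73 to 10.11 in control and 7.91 to 8.74 in DX2 spleens. Of these markers 5 were past the threshold, against 0.316% of all genes in either direction. The part of these cell types in the lysosomal values was not tested.

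Array by array, the macrophage markers and the lysosomal genes did not follow the same order among the DX2 spleens. The median deviation from the control mean was 0.53, 0.35 and 0.40 for the macrophage markers in DX2 1, 2 and 3, where the lysosomal genes gave 0.03, 0.46 and 0.26. The 8 dendritic cell markers gave -0.15, 0.12 and -0.03, in the order of the lysosomal genes, although their mean log2 values (6.93, 7.02 and 7.09) were in another order. The order of the lysosomal genes was also that of the T cell markers (-1.14, 0.07 and -0.08) and NK cell markers (-0.39, 0.02 and -0.36). All genes together had it too, with smaller values (-0.014, 0.018 and 0.003). What gave this order was not tested. The monocyte markers gave 0.47, 0.46 and 0.20, and their mean log2 values were 8.07, 8.26 and 7.86, highest in DX2 2. In DX2 1 the B cell markers deviated by -2.06 and the T cell markers by -1.14, both the lowest of the 6 arrays, and the neutrophil and erythroid markers by 1.81 and 2.09, both the highest. In DX2 2, where most lysosomal genes peaked, the corresponding values were -1.11 for B cell, 0.07 for T cell, -0.07 for neutrophil and -0.19 for erythroid markers. The mean of 7 markers of neighbouring pancreas and fat was 4.73 to 5.38 on the 6 arrays. Log2 array values have no true 0, so no marker could be read as absent.

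**Figure D4:**
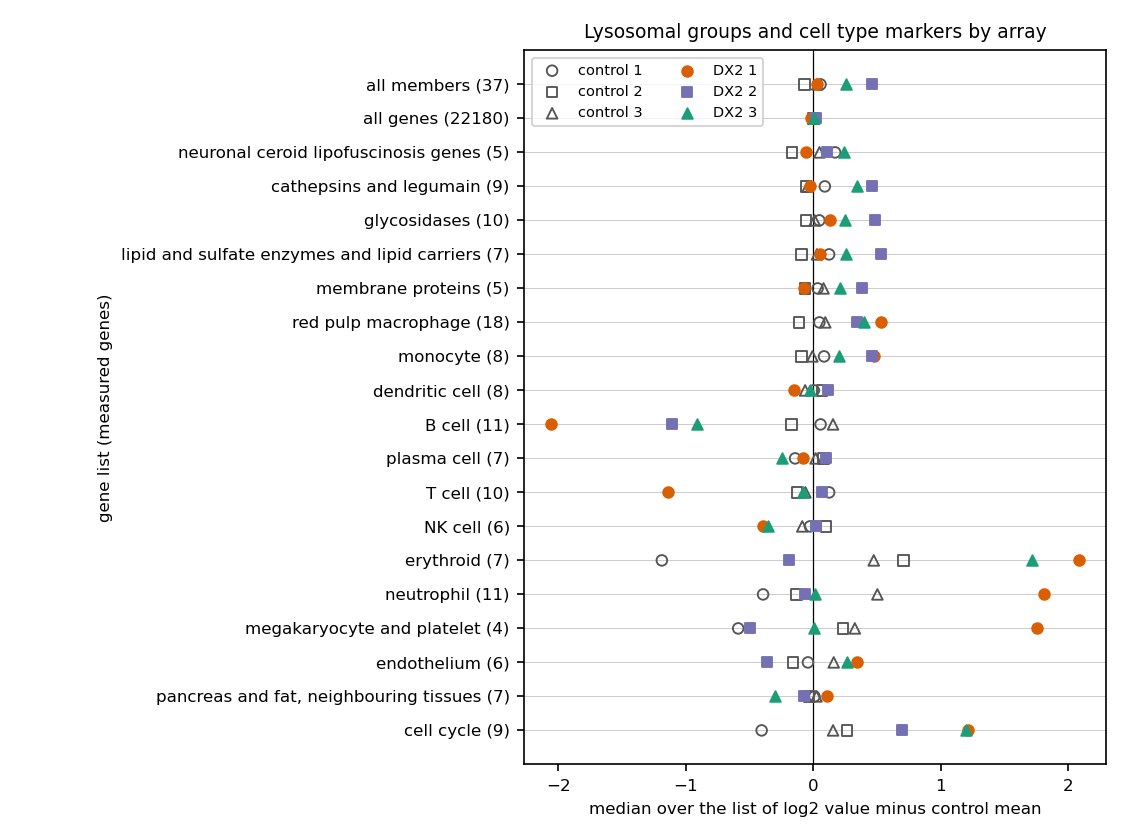
Median, over each gene list, of the log2 value minus the control mean (x axis) on each of the 6 arrays, for groups of lysosomal genes and for cell type markers (y axis, measured genes in brackets). Open grey symbols are control and filled symbols DX2 arrays. For the lysosomal genes as a whole DX2 2 is at 0.46 and DX2 1 at 0.03, while for red pulp macrophage markers DX2 1 is the highest at 0.53.

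Sex divided the controls, so the male control 3 was also set alone against the 3 male DX2 spleens. All DX2 arrays lay above it in 19 of 37 members (51.4%) and in 28.9% of all genes, and below it in 5 members (13.5%) and in 25.7% of all genes. The median difference of the members in the male spleens was 0.24, which a sex term gives too by construction, and no member passed in either. Between the controls, the median of the male minus the mean of the female values was 0.05 over the members.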

How the data were processed

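The authors deposited log2 values for 6 spleen arrays, made with RMA per the submitters' processing notes (background correction, normalization between arrays, probe summary). The RMA version was not given in the sources used here. The log2 scale was read from the range (0.771 to 13.3). RMA can understate large differences. Groups come from the titles. Of 41345 probe sets, 23521 had 1 gene symbol, 1814 several and 16010 none, giving 22180 genes, and 4 members had more than 1 probe set.

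Each DX2 minus control difference was fitted with lmFit and eBayes (limma 3.58.1, R 4.3.3; no covariate or filter), with Benjamini-Hochberg over all genes and a threshold of 0.05. "Rose" and "fell" are used of genes that passed. In simulations (22180 genes, 20 draws), 200 genes were shifted by a log2 unit or more. Genes were drawn independently, with normal noise of equal spread in both groups, which the arrays need not follow. Of genes shifted by a log2 unit 62.4% were called, and 5.09% of calls were false. These shares may not hold for the arrays, and no member differed by as much as a log2 unit. List values carry no test. Members, gene lists and tests were chosen with earlier results of these data known. All 38 members are accounted for. Of the other lists, genes that passed and otherwise the 4 with the smallest unadjusted p are named. The alternatives tried are those of the closing section. Replicate numbers pair nothing in the labels.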

Additional observations from a re-analysis of the deposited data

How the results depend on the processing

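The median difference of the lysosomal genes kept its direction under every alternative, between 0.16 (without DX2 2) and 0.39 (without DX2 1). It was 0.37 with centred arrays, 0.33 with a second quantile normalization and 0.24 with a sex term. The number of members called was 1 (Cln6) or 0. It was 0 with the replicate number as a block, with centred arrays, with a sex term and in the male spleens alone, and ran from 0 to 1 when 1 array was left out. In these fits Cln6 differed by 0.88 with the replicate block (adjusted p = 0.200), by 0.98 with centred arrays (0.0580), by 0.83 with a sex term (0.370) and by 0.83 in the male spleens (0.678), and by 0.83 to 0.98 when 1 array was left out. In the male spleens the lone control was assumed to vary like the DX2 spleens. Cln6 was called with the 40% dimmest genes removed, a mean-variance trend, array weights, a second quantile normalization, either other choice of probe set, and an adjusted p under 0.1. Over all genes 70 passed, against 0 in the male spleens, 1 with the block, 2 with centred arrays or a sex term, 125 without the dimmest genes, 547 with array weights and 1 to 370 when 1 array was left out. The labels do not pair the samples by replicate number. Same-numbered deviations correlated at -0.32, -0.14 and 0.07, and the others at -0.21 to 0.33. With so few arrays these values cannot decide whether samples were paired. The number of members with every DX2 array above every control array ran from 12 to 23 when 1 array was left out and was 19 in the male spleens. Over all genes the share above was 10.7% with every array. It was 14.3% to 17.9% when 1 array was left out and 28.9% in the male spleens, since fewer arrays overlap less often.

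Members near 0 changed sign under some alternatives, none of them called. When 1 array was left out, Scarb2 ran from -0.090 to 0.154, Tpp1 from -0.243 to 0.040, Arsb from -0.244 to 0.091, Ctsa from -0.023 to 0.113, Ctsh from -0.110 to 0.181, Ctss from -0.106 to 0.376 and Naglu from -0.0073 to 0.310. The lowest values of Ctsa, Ctsh, Ctss and Naglu came without DX2 2. Scarb2 was -0.0033 with a second quantile normalization and -0.041 with a sex term or in the male spleens, Arsb was 0.022 with centred arrays, and Ctsh was -0.036 with array weights. Apart from fits with fewer arrays, the cause was not tested. The number of arrays and the unknown floor of detection limit all values.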
